A study of Homo sapiens with 8 samples.

Results

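The genes of DNA replication were read in RKO, an established human colon carcinoma cell line, after a control siRNA or an siRNA against A20 had been given. They are 42 genes chosen by their function, which covers the licensing of replication origins, the replication fork and the making of deoxynucleotides. The rule uses no measured value, but the members were chosen with earlier results of these data known. The counts covered 57992 genes, of which 13412 had enough reads to be tested, and all 42 replication genes were among these. RNA came from 8 samples of RKO, 4 given control siRNA and 4 given A20 siRNA, and every sample had been stimulated with recombinant human wnt3a at 50 ng/mL for 24 hours before polyadenylated RNA was sequenced. All samples had wnt3a, and the siRNAs are therefore compared only in stimulated cells, of 1 line. None of the sources used here says whether the 4 samples of a group were separate experiments or parallel cultures, so the p-values measure only the spread between these samples, which may be technical.

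A human cell copies its genome once per division. In G1 the origin recognition complex, with CDC6 and CDT1, loads the MCM2-7 helicase onto DNA, which licenses the origin. At the start of S phase, kinases and loading factors add CDC45 and the GINS complex to MCM2-7, and the active helicase then opens the fork for the DNA polymerases, which work with the sliding clamp PCNA on single strands coated by RPA. Many of these genes are transcribed late in G1 under E2F factors, so as a group they are widely read as a mark of cells entering S phase. A20, encoded by TNFAIP3, is a ubiquitin-editing enzyme best known as a brake on NFkB signaling.

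Depth was between 23912317 and 30022486 counts per sample with control siRNA and between 21226451 and 34194273 with A20 siRNA. Levels are given as CPM, read counts put on 1 scale of library size by the TMM method, and 3 counts correspond to 0.0877 to 0.141 CPM, a floor that covers counting error only. TNFAIP3, the target, was at 4.92, 5.83, 5.59 and 5.54 CPM with control siRNA and at 3.47, 3.01, 3.40 and 3.43 CPM with A20 siRNA. The groups did not overlap, and the target's mean level was 60.8% of control (p = 0.0286 by a two-sided, exact permutation test, which can go no lower with 4 against 4). The residual level means that the comparison is of a partial knockdown at the transcript. Of 11 markers of colon epithelium, EPCAM, KRT8, KRT18 and CDX2 had at least 10 counts in every sample, whereas CDH1, KRT19, KRT20 and CDX1 had none in any. The summed epithelial markers were at 140 to 152 CPM with control siRNA and 138 to 146 CPM with A20 siRNA. Of 5 immune markers 3 never passed 3 counts, with sums of 0.9 to 1.62 CPM with control siRNA and 1.06 to 1.5 CPM with A20 siRNA, and of 5 fibroblast and endothelial markers 4 never did, with sums of 0.0391 to 0.133 CPM and 0 to 0.143 CPM.

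None of the 42 replication genes passed the test in either direction. The test was edgeR's quasi-likelihood method, with p-values adjusted over all 13412 genes by Benjamini and Hochberg and a threshold of 0.05. It called 0 members lower and 0 higher, against a background of 0.611% of all tested genes called lower, 0.634% called higher and 1.25% called in either direction. DESeq2 and limma-voom also called 0 members. Below 0 were the log2 fold changes of 20 of the 42 members (47.6%, against 48.4% of all tested genes), and 22 were above. Their median was 0.0053 on the log2 scale, beside 0.0028 over all tested genes, and they ran from -0.15 for RPA3 to 0.12 for POLE. In RNA from a whole culture, fewer cells in S phase and less replication RNA per cell cannot be told apart, so these values describe the culture as a whole.

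The intervals give the range of differences compatible with each member's samples, with no adjustment over genes. They do not give the smallest difference that the adjusted test could call. On simulated counts that test recovered 54.4% of genes changed by 0.2 log2 units. Those genes were drawn at random from all tested genes, whose median level was 26.8 CPM, against 78.4 CPM in the members. The share is therefore not one for genes of the members' level. The 95% interval reached 0.045 to 0.11 log2 units to either side of a member's log2 fold change, with a median of 0.062. For 40 of the 42 members, 95.2%, the interval lay within 0.2 log2 units of 0, that is, between 12.9% lower and 14.9% higher. The exceptions were TIPIN, from -0.21 to -0.045, and RPA3, from -0.26 to -0.034. Of the 7069 tested genes whose mean level was within the members' range, 94.9% had an interval inside the same bounds, so the replication genes were in this respect like other genes of their level. Their median size of difference, 0.034 log2 units regardless of sign, also stood beside 0.034 in those genes.

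At an unadjusted p under 0.05 there were 6 members lower, TIPIN, RPA3, MCM6, CDT1, GINS2 and TYMS, and 1 higher, POLE. That is 14.3% of members lower and 2.38% higher, where the background over all tested genes was 7.37% lower and 8.81% higher, and where genes of the members' range of level had 10.4% and 9.59%. Groups did not overlap, every A20 siRNA sample being below every control sample, in 3 members, CDT1, TIPIN and RPA3 (7.14%, background 3.9%), and the reverse held in 1, ORC6 (2.38%, background 3.71%). Among genes of the members' range of level these shares were 5.3% lower and 3.79% higher. Counts of this size rest on few genes, and none of these members passed after adjustment.

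**Figure D1:**
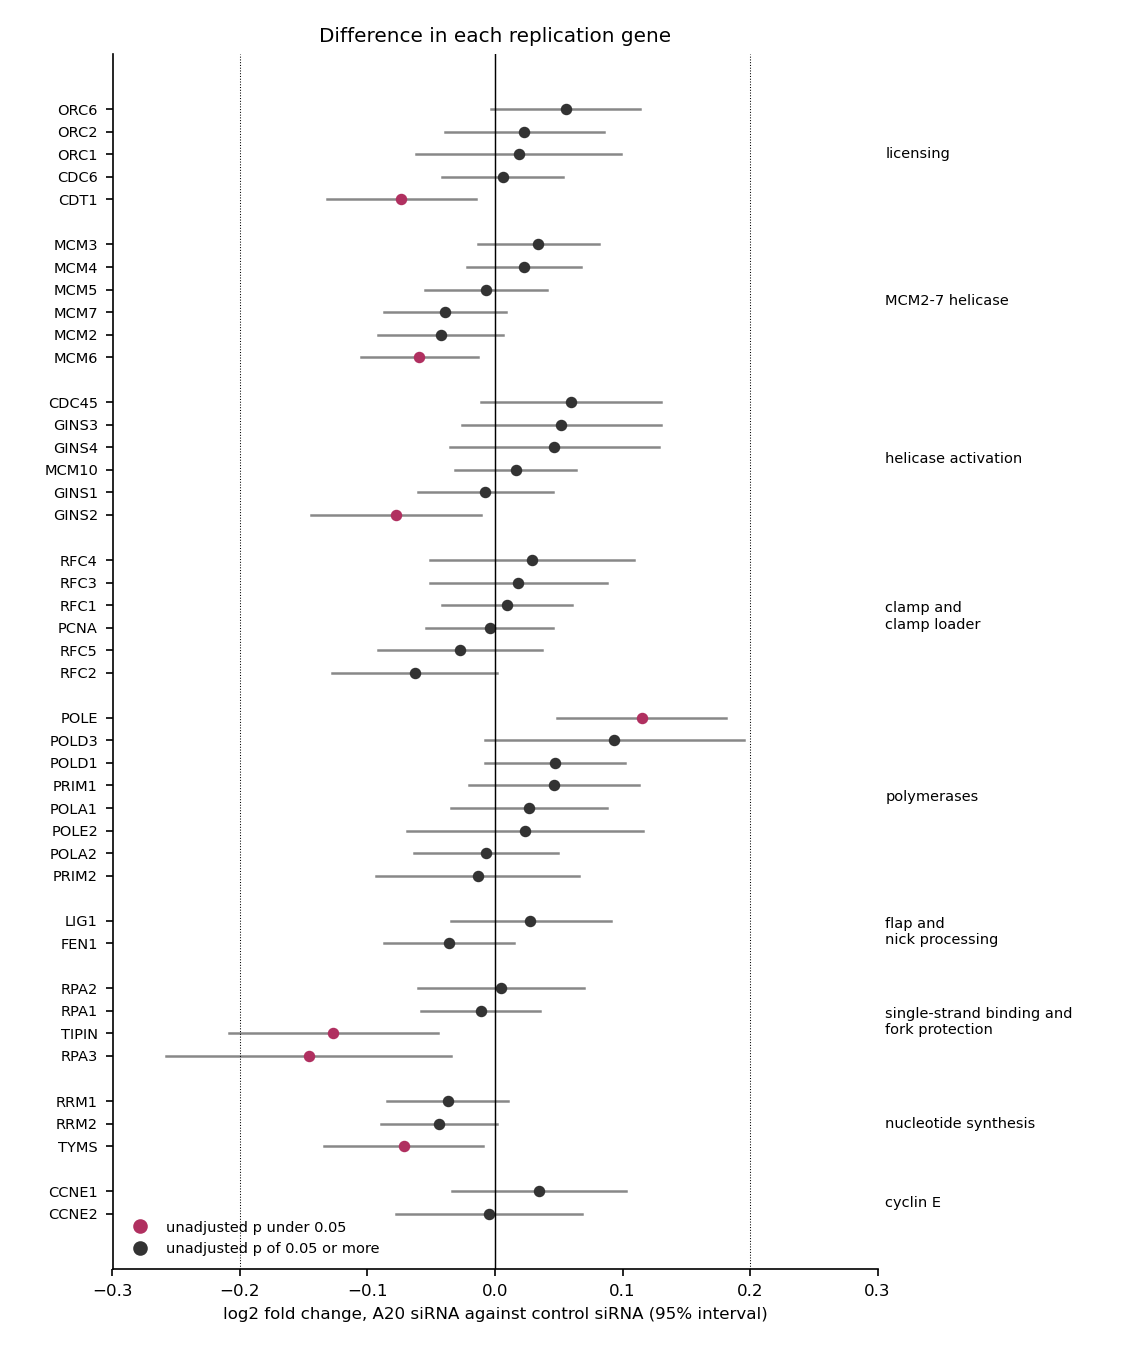
Difference of each of the 42 replication genes between A20 siRNA and control siRNA, grouped by role. The horizontal axis is the log2 fold change from edgeR, points are estimates, bars are 95% intervals, and dotted lines mark 0.2 log2 units on either side of 0; the bars of 40 genes stay inside those lines, and those of TIPIN and RPA3 reach beyond the lower one.

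MCM4, RRM2 and MCM7 had the highest CPM, with means of 658, 634 and 612 CPM with control siRNA and 668, 615 and 595 CPM with A20 siRNA. RPA3 and POLD3 had the lowest, at 23.4 and 22.7 CPM with control siRNA and 21.0 and 24.4 CPM with A20 siRNA. CPM grows with transcript length, so levels between genes are compared below as CPM per kilobase of exonic length, counted over all annotated exons of the gene. On that scale PCNA was first, at 298 CPM per kilobase, then MCM7 at 122 and RRM1 at 86.9, and POLD3 was last at 4.28. Counting only the canonical transcript, a scale added after the data were seen, left PCNA and MCM7 first and POLD3 last, and put RRM2, at 192, above RRM1, at 117 CPM per kilobase.

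**Figure D2:**
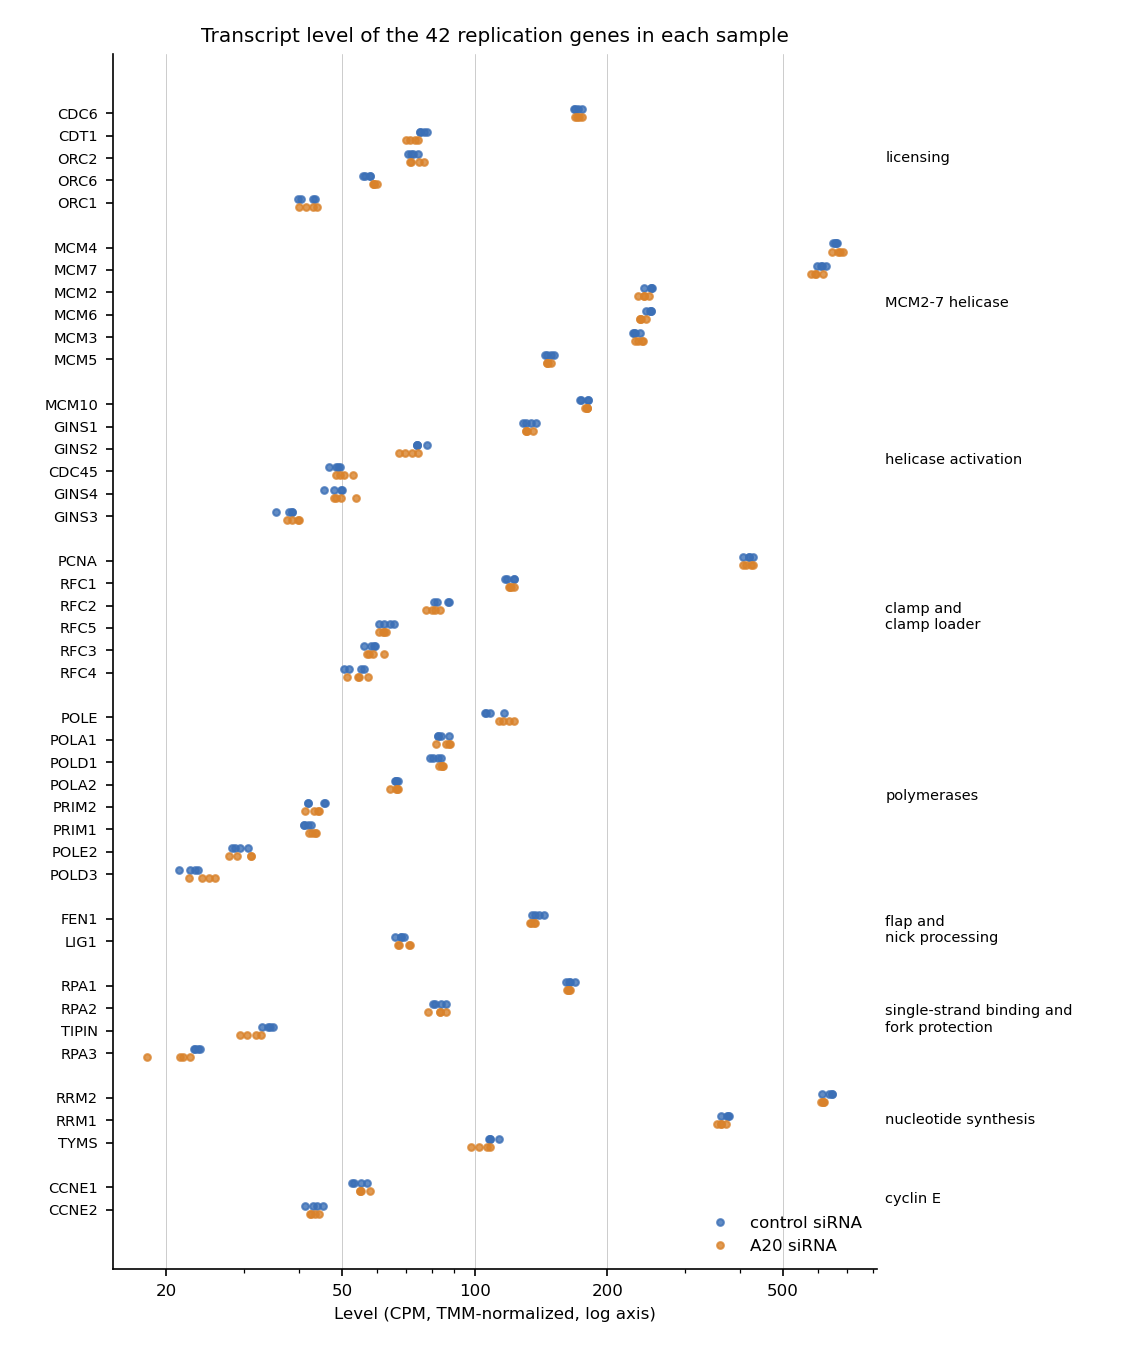
Transcript level of the 42 replication genes in each of the 8 samples. The horizontal axis is TMM-scaled CPM on a log axis, each point is 1 sample, blue for control siRNA and orange for A20 siRNA; levels span from RPA3 and POLD3 near 20 CPM to MCM4, RRM2 and MCM7 near 600 CPM, and the colors overlap in all genes but CDT1, ORC6, RPA3 and TIPIN.

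Of the 5 licensing genes, ORC1, ORC2, ORC6, CDC6 and CDT1, only CDT1 had a log2 fold change below 0, and none passed the test. CDT1 (ENSG00000167513, chromosome 16, 88803789 to 88809258, forward strand), the loader that brings MCM2-7 to the origin, read 75.1, 75.1, 76.8 and 77.8 CPM with control siRNA. It read 73.4, 74.5, 71.3 and 70.0 CPM with A20 siRNA, each below every control sample. The log2 fold change was -0.073 with an SE of 0.028 (edgeR adjusted p = 0.193). ORC6, a subunit of the origin recognition complex, read 57.9, 55.9, 57.8 and 56.5 CPM with control siRNA and 59.1, 59.9, 58.8 and 59.2 CPM with A20 siRNA. Its A20 siRNA samples all stood above its control samples, and the log2 fold change was 0.055 with an SE of 0.028 (edgeR adjusted p = 0.338). CDC6, the ATPase that works beside CDT1 and the licensing gene of highest level per kilobase, read 171, 175, 169 and 168 CPM against 169, 175, 170 and 173 CPM, with its samples fully interleaved. ORC1 and ORC2, the other subunits listed, had log2 fold changes of 0.019 and 0.023.

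Geminin, the protein that binds CDT1 and blocks relicensing, is encoded by GMNN, which was not among the 42 and was looked at after the CDT1 values had been seen. GMNN stood at 58.9 ± 2.03 CPM with control siRNA and 59.7 ± 0.926 CPM with A20 siRNA (SD, n = 4), and its log2 fold change was 0.021 (edgeR adjusted p = 0.786). CDT1 counts per GMNN count were 1.33, 1.28, 1.29 and 1.27 with control siRNA and 1.24, 1.23, 1.22 and 1.16 with A20 siRNA. The ratio's groups did not overlap either, and since the CDT1 values had prompted the ratio it is given as a description with no test.

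MCM2 to MCM7 encode the 6 subunits of the hexameric helicase that CDT1 loads. None passed the test, 4 of 6 had a log2 fold change below 0, and their median was -0.023. MCM6 (ENSG00000076003, chromosome 2, 135839626 to 135876443, reverse strand) read 244, 250, 251 and 252 CPM with control siRNA and 237, 238, 244 and 237 CPM with A20 siRNA. Its groups met at control replicate 1 and A20 replicate 3, and the log2 fold change was -0.059 with an SE of 0.022 (edgeR adjusted p = 0.18). MCM2 read 243, 251, 252 and 251 CPM against 242, 248, 242 and 234 CPM, with control replicate 1 apart from the other controls and inside the A20 siRNA range. MCM2's log2 fold change was -0.043 with an SE of 0.023 (edgeR adjusted p = 0.382). MCM7, of highest level per kilobase among the 6, read 598, 625, 609 and 614 CPM with control siRNA and 591, 616, 594 and 580 CPM with A20 siRNA, and its groups overlapped. MCM3 and MCM4 had log2 fold changes of 0.034 and 0.023, and MCM5 of -0.0073.

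Although the 6 subunits join in equal number in the protein ring, their transcripts did not stand at equal levels. Per kilobase of all annotated exons they ran from MCM5, at 20.3, to MCM7, at 122 CPM per kilobase, a ratio of 6.0, and with the canonical transcript the same genes stood at the ends with a ratio of 5.74. MCM4 took 31.1%, 30.4%, 30.8% and 30.3% of the summed MCM2-7 CPM with control siRNA and 30.9%, 31.1%, 31.3% and 32.3% with A20 siRNA. Those shares overlapped. Without control replicate 1 edgeR called 2 members lower, MCM6 at a log2 fold change of -0.072 (adjusted p = 0.046) and RRM2 at -0.064 (adjusted p = 0.0438), and with any other single sample left out it called none lower. In the same fit 997 of all genes were called, against 167 with all 8 samples.

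MCM10, CDC45 and the GINS genes turn the loaded helicase on. Of these 6, 2 had log2 fold changes below 0, the median was 0.031, and none passed the test. GINS2 (ENSG00000131153, chromosome 16, 85676198 to 85690073, reverse strand), 1 of the 4 subunits of the complex that binds MCM2-7 with CDC45, read 74.1, 77.9, 74.0 and 73.9 CPM with control siRNA and 74.3, 72.2, 67.5 and 69.4 CPM with A20 siRNA. A20 replicate 1 lay within the control range and the other A20 siRNA samples below it, and the log2 fold change was -0.077 with an SE of 0.032 (edgeR adjusted p = 0.232). The other subunits had log2 fold changes of -0.0075 for GINS1, 0.052 for GINS3 and 0.047 for GINS4. MCM10, a fork factor needed for activation, read 181, 174, 181 and 173 CPM against 178, 180, 180 and 180 CPM, all A20 siRNA samples within the control range. CDC45 stood at 48.4 ± 1.18 CPM with control siRNA and 50.3 ± 1.86 CPM with A20 siRNA (SD, n = 4), a log2 fold change of 0.059 (edgeR adjusted p = 0.398).

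PCNA, the ring that holds polymerases on DNA, had the smallest difference of the 42 in size. Its levels were 406, 419, 428 and 420 CPM with control siRNA and 412, 423, 428 and 406 CPM with A20 siRNA. The samples of both groups spanned the same range, and the log2 fold change was -0.0043 with a 95% interval from -0.054 to 0.045. RFC1 to RFC5 encode the loader that opens the ring. RFC2 read 82.1, 81.0, 87.3 and 87.1 CPM against 81.2, 83.4, 80.1 and 77.6 CPM, where control replicates 3 and 4 stood above all others, and the log2 fold change was -0.063 with an SE of 0.031 (edgeR adjusted p = 0.324). RFC1, RFC3, RFC4 and RFC5 had log2 fold changes between -0.027, in RFC5, and 0.029, in RFC4. Within the loader the levels were closer than in MCM2-7, from 18.0 CPM per kilobase in RFC1 to 37.3 in RFC2, a ratio of 2.08.

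The polymerase genes held the member of smallest p. POLE (ENSG00000177084, chromosome 12, 132623753 to 132687376, reverse strand) encodes the catalytic subunit of DNA polymerase epsilon, which makes the leading strand. It read 116, 106, 109 and 106 CPM with control siRNA and 123, 116, 120 and 114 CPM with A20 siRNA. Control replicate 1 was as high as the lower A20 siRNA samples, and the other controls were below all of them. The log2 fold change was 0.12 with an SE of 0.032 and a 95% interval from 0.049 to 0.18 (edgeR adjusted p = 0.0716). POLE was called in 6 of the alternatives run and not in the other 13. Those 6 include the fit without control replicate 1, at 0.15 (edgeR adjusted p = 0.00403). They also include the fit with no filter on low counts, at 0.11 (edgeR adjusted p = 0.00765). The rest of these calls are given in the last section. POLE was not called by DESeq2 (adjusted p = 0.073) or limma-voom (adjusted p = 0.0725).

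The partner subunit POLE2 stood at 29.2 ± 1.05 CPM with control siRNA and 29.7 ± 1.68 CPM with A20 siRNA (SD, n = 4), a log2 fold change of 0.024. POLE counts per POLE2 count were 3.81, 3.68, 3.86 and 3.61 with control siRNA and 3.95, 4.20, 4.14 and 3.67 with A20 siRNA, and these overlapped. POLD3, an accessory subunit of DNA polymerase delta, read 23.6, 22.6, 21.4 and 23.2 CPM against 22.5, 24.1, 25.0 and 25.8 CPM. A20 replicate 1 was inside the control range and the other A20 siRNA samples above it, and the log2 fold change was 0.093 with an SE of 0.048 (edgeR adjusted p = 0.349). POLD1, the catalytic subunit of the same enzyme, read 80.4, 83.7, 82.4 and 79.2 CPM with control siRNA and 84.5, 84.6, 82.8 and 84.5 CPM with A20 siRNA, overlapping through A20 replicate 3, with a log2 fold change of 0.047 (edgeR adjusted p = 0.392). DNA polymerase alpha and its primase, which start each strand, gave log2 fold changes of 0.026 for POLA1, -0.0071 for POLA2, 0.046 for PRIM1 and -0.014 for PRIM2. In all, 6 of the 8 polymerase genes were above 0, with a median of 0.036, and none passed the test.

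FEN1 and LIG1 finish the lagging strand, FEN1 by cutting the flap and LIG1 by sealing the nick. FEN1 read 137, 143, 135 and 140 CPM with control siRNA and 134, 137, 134 and 137 CPM with A20 siRNA, the groups overlapping, and had a log2 fold change of -0.036 (edgeR adjusted p = 0.491). LIG1 had one of 0.028 (edgeR adjusted p = 0.706).

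The genes that protect single-stranded DNA and the fork held both members whose interval passed 0.2. TIPIN (ENSG00000075131, chromosome 15, 66336191 to 66386746, reverse strand) encodes the partner of TIMELESS in the fork protection complex. It read 34.0, 34.9, 34.4 and 33.0 CPM with control siRNA and 31.9, 30.5, 32.7 and 29.4 CPM with A20 siRNA. All A20 siRNA samples stood below the controls, by little in A20 replicate 3, and the log2 fold change was -0.13 with an SE of 0.039 (edgeR adjusted p = 0.108). TIMELESS itself, looked at after TIPIN, stood at 113 ± 4.49 CPM with control siRNA and 115 ± 0.689 CPM with A20 siRNA (SD, n = 4), a log2 fold change of 0.032 (edgeR adjusted p = 0.618).

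RPA3 (ENSG00000106399, chromosome 7, 7636518 to 7718607, reverse strand) encodes the smallest subunit of replication protein A. It read 23.3, 23.8, 23.6 and 23.1 CPM with control siRNA and 22.6, 21.8, 21.4 and 18.1 CPM with A20 siRNA. The control samples were close together, while A20 replicate 4 lay well below the other A20 siRNA samples. The log2 fold change was -0.15 with an SE of 0.054 (edgeR adjusted p = 0.176). Leaving out A20 replicate 4 moved it to -0.092 (edgeR adjusted p = 0.386). With any other single sample left out it stayed between -0.19 and -0.14. The other subunits of the trimer had log2 fold changes of -0.011 for RPA1 and 0.0046 for RPA2. RPA2, of highest level per kilobase in the group, read 80.3, 86.2, 84.0 and 81.2 CPM with control siRNA and 86.2, 83.5, 83.5 and 78.6 CPM with A20 siRNA, with full overlap. From RPA3 to RPA2 the level ran from 6.87 to 41.9 CPM per kilobase, a ratio of 6.09.

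Deoxynucleotides for the fork come from ribonucleotide reductase, made of RRM1 and RRM2, and from thymidylate synthase, TYMS. All 3 log2 fold changes were below 0 and none passed the test. TYMS (ENSG00000176890, chromosome 18, 657653 to 673578, forward strand) read 108, 113, 108 and 108 CPM with control siRNA and 108, 107, 102 and 98.2 CPM with A20 siRNA. A20 replicate 1 matched the lower controls and the rest were below, and the log2 fold change was -0.072 with an SE of 0.030 (edgeR adjusted p = 0.238). RRM2, the subunit whose level sets the enzyme's activity through S phase, read 612, 645, 635 and 645 CPM against 611, 616, 618 and 616 CPM. Control replicate 1 sat with the A20 siRNA samples and the other controls above, and the log2 fold change was -0.044 with an SE of 0.022 (edgeR adjusted p = 0.328). RRM1, the large subunit, read 363, 376, 378 and 373 CPM with control siRNA and 355, 372, 362 and 362 CPM with A20 siRNA, with overlap and a log2 fold change of -0.037 (edgeR adjusted p = 0.44). RRM2 counts per RRM1 count were between 1.68 and 1.73 with control siRNA and between 1.65 and 1.72 with A20 siRNA.

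Cyclin E, which drives CDK2 at the entry into S phase, is encoded by CCNE1 and CCNE2. CCNE1 read 52.8, 53.2, 56.9 and 55.3 CPM with control siRNA and 55.0, 58.0, 54.9 and 55.3 CPM with A20 siRNA, the groups overlapping. The log2 fold change was 0.035 for CCNE1 (edgeR adjusted p = 0.656) and -0.0051 for CCNE2 (edgeR adjusted p = 0.962).

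**Figure D3:**
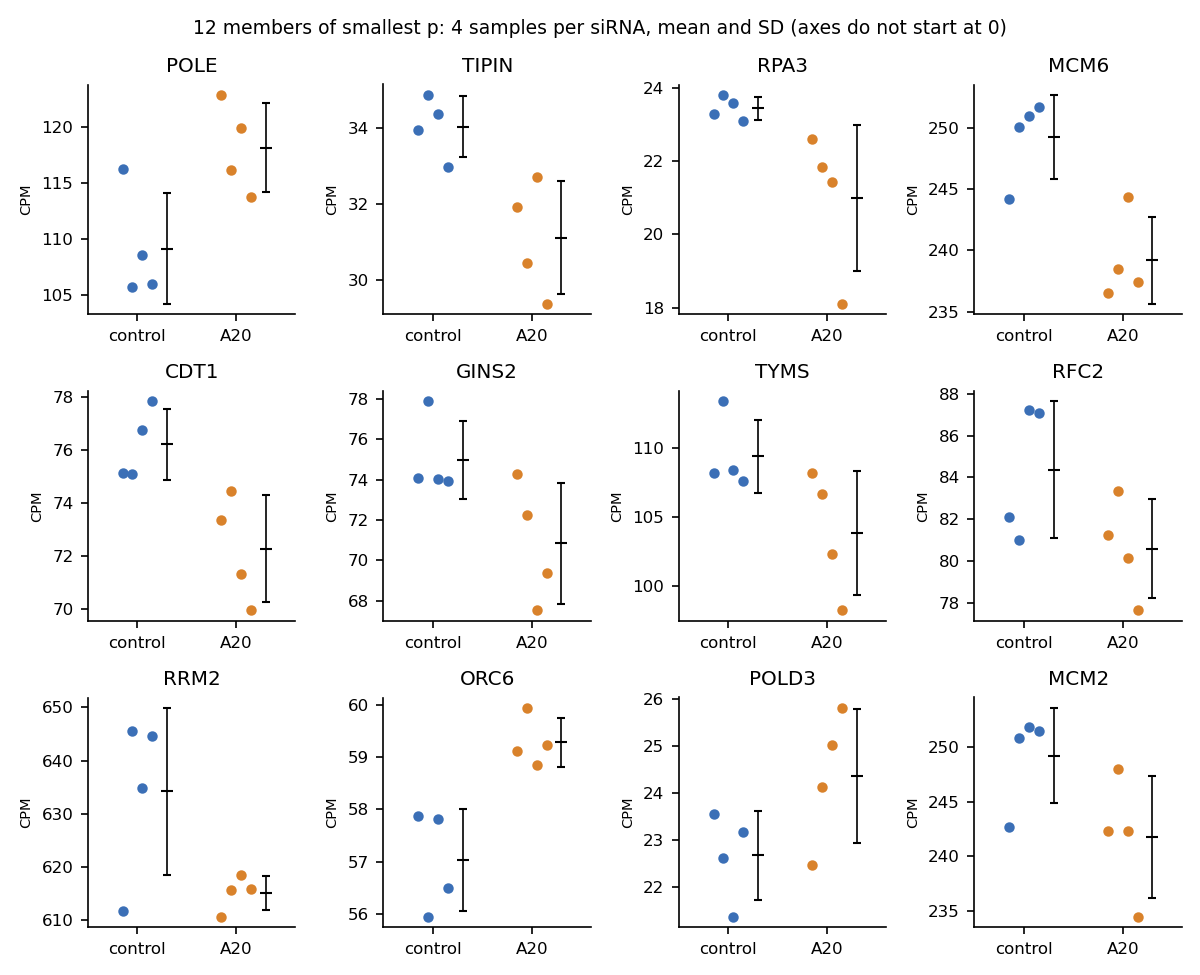
Level in each sample of the 12 replication genes of smallest unadjusted p. Each panel's vertical axis is CPM and does not start at 0, points are the 4 samples of each siRNA, and bars beside them give the mean and SD; A20 siRNA samples are all below the controls in TIPIN, RPA3 and CDT1 and all above in ORC6, and the groups overlap in the other 8.

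The replication genes were also followed as a whole in each sample. They took 0.603%, 0.615%, 0.606% and 0.601% of all gene counts with control siRNA and 0.602%, 0.612%, 0.608% and 0.600% with A20 siRNA. The highest share of each group was in its replicate 2 and the lowest in its replicate 4. In each sample the median deviation of the 42 genes from their own means over the 8 samples was between -0.011 and 0.019 log2 units with control siRNA and between -0.017 and 0.016 with A20 siRNA. A20 replicate 4, the sample of least depth, had the widest spread, with the middle of its deviations from -0.061 to 0.010. The coefficient of variation between samples of the same siRNA, pooled over both siRNAs, had a median of 2.8% in the members. Counting alone gives a median of 2.19%. The pooled value ran from 1.31% in ORC6 to 6.4% in RPA3. Genes of the same range of level had a median of 2.97%, and the biological coefficient of variation over all tested genes was 2.73%.

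**Figure D4:**
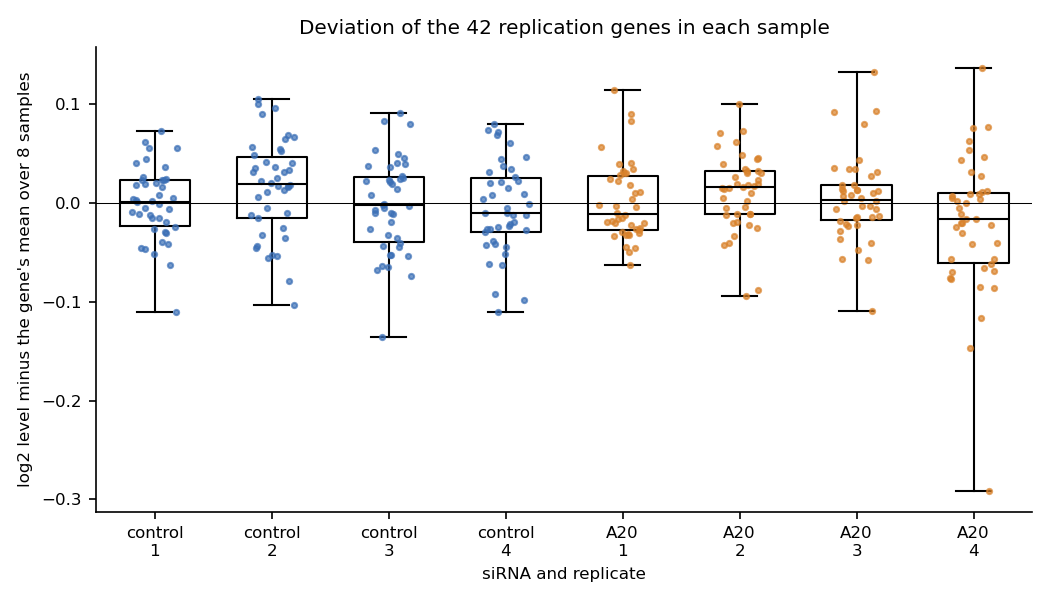
Deviation of each of the 42 replication genes in each sample from its own mean over the 8 samples. The vertical axis is in log2 units, points are genes, boxes give the median and the quartiles, and whiskers reach the lowest and highest gene; the medians stay between -0.017 and 0.019 and the lowest point, in A20 replicate 4, is RPA3.

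Length moved with the differences, in the members and beyond them. Over the 42 genes Spearman's rho between the log2 fold change and the exonic length was 0.261, and over 13316 tested genes with a length it was 0.18. These are correlations across genes measured in the same libraries, given as a description. Among the members the 14 shortest had a median log2 fold change of 0.00013, the middle 14 of 0.00047 and the 14 longest of 0.013. POLE, with 12364 exonic bases, was the second longest and POLA1, with 15547, the longest. After a correction for length and GC content in each sample rho was 0.0994 in the members and 0.0382 over all genes. Under that correction the log2 fold change went to 0.094 for POLE (edgeR adjusted p = 0.1), to -0.11 for TIPIN and to -0.14 for RPA3. Trends of level with length differed between samples of 1 group, with a rho across genes of 0.0794 in control replicate 1 and of -0.111 to -0.2 in the other controls, and of -0.0816 in A20 replicate 2 and of 0.0686 to 0.178 in the other A20 siRNA samples. Leaving out control replicate 1 and A20 replicate 2, without a length correction, gave 0.16 for POLE (edgeR adjusted p = 0.00361) and called no other member. In that fit 1097 of all genes were called, against 167 with all 8 samples. The samples left in it had trends of -0.111 to -0.2 with control siRNA and of 0.0686 to 0.178 with A20 siRNA. Length trend and siRNA therefore cannot be told apart in it. The part of length in the difference of POLE beyond the length and GC correction was not tested.

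**Figure D5:**
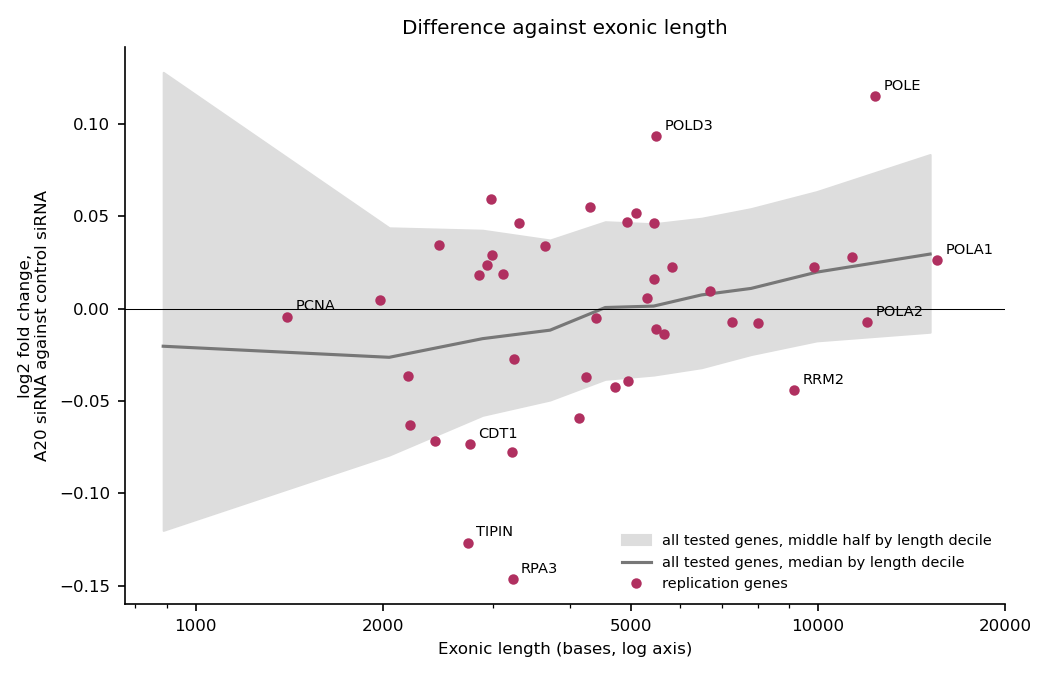
Difference between A20 siRNA and control siRNA against exonic length. The horizontal axis is length in bases on a log axis and the vertical axis is the log2 fold change, points are the 42 replication genes, the line is the median and the band the span between quartiles of all tested genes, taken in 10 bins by length; the line goes from -0.020 in the shortest bin to 0.030 in the longest, and POLE, POLD3, TIPIN and RPA3 are among the genes outside the band.

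Some members share bases with other genes, and the sources used here do not say whether reads were counted by strand. Exons of ENOSF1 on the opposite strand cover 39.9% of TYMS, exons of INTS8 cover 37% of CCNE2, and a processed pseudogene on the same strand, RPL9P25, covers 21.1% of TIPIN. Processed copies also exist for PCNA, RPA2, RRM2, TYMS, RPA3 and TIPIN among others, so reads that match a copy equally well would be missing from these uniquely mapped counts and their levels are less certain.

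E2F sites were looked for in the promoters, because E2F factors are the best known activators of this group. RefSeq windows on GRCh38.p14 were at hand for 35 of the 42 members, and the 250 bases upstream of each start were searched on both strands for TTTCCCGC, TTTGGCGC, TTTCGCGC and TTTGCCGC. At least 1 of these stood in a window of 13 of the 35 members (37.1%). By window it was 29.5% of 44 member windows, against 2.79% of all 35116 windows of that length and 4.27% of the 14297 windows of tested genes. The 13 were CDT1, GINS2, LIG1, MCM3, MCM6, MCM7, PCNA, POLA1, POLA2, POLE, RFC3, TIPIN and TYMS. Their median log2 fold change was -0.0071 with 8 of 13 below 0. That of the 22 members with a window and no match was 0.013 with 9 of 22 below 0, so carriers of these letters went to both sides. MCM7, PCNA and TIPIN had more than 1 window, and not every window of theirs held a match. The 216 bases directly upstream of POLE's gene start in GENCODE held 0 matches, as did the 221 bases directly upstream of TIPIN's. CCAAT, on either strand, was in 59.1% of member windows and 32.0% of all, and the CHR letters TTTGAA or TTCGAA, best known from mitotic genes, were in 4.55% and 14.3%. A match is a stretch of letters and not a measured site, and the absence of a match covers only these letters in these windows.

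The upstream sequences of MCM6, CDT1 and PCNA show how the matches lie in a helicase subunit, a licensing factor and the clamp. They hold no annotated exon of any gene and are written 5′ to 3′ along the gene's strand with the E2F letters in capitals. MCM6 is at chr2:135876444-135876693 on the reverse strand, CDT1 at chr16:88803539-88803788 on the forward strand and PCNA at chr20:5126627-5126872 on the reverse strand.
MCM6: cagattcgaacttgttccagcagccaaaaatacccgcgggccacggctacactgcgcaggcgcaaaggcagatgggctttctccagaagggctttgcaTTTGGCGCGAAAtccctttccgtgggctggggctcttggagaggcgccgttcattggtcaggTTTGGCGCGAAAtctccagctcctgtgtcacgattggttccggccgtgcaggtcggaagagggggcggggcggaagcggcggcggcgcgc
CDT1: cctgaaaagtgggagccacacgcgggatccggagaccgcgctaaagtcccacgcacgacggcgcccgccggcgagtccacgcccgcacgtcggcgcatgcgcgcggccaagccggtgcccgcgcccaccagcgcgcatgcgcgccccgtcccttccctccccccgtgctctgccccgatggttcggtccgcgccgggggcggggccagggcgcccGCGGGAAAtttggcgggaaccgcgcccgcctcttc
PCNA: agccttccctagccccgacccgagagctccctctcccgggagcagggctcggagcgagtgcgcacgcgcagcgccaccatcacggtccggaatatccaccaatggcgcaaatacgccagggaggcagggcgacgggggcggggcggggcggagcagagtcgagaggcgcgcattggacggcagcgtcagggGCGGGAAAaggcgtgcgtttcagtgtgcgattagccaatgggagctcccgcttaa
In MCM6 there are 4 matches, which overlap by pairs in the same 12-base run at 2 places, each run reading as TTTGGCGC on one strand and TTTCGCGC on the other. CDT1 and PCNA have 1 each, the letters of TTTCCCGC read on the other strand. Of these genes MCM6 and CDT1 had the lower levels with A20 siRNA given above, at -0.059 and -0.073 on the log2 scale without passing the test, and PCNA was at -0.0043.

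Other genes of S phase gave the same count. Of 67 further genes 66 were tested, ATRIP being under the filter, and edgeR called 0 lower and 0 higher, with a median log2 fold change of 0.0086. At an unadjusted p under 0.05 there were 4 lower and 8 higher, which is 6.06% and 12.1%, beside 7.37% and 8.81% of all tested genes and 10.4% and 9.59% of those in the members' range of level. The smallest p-values were those of ATAD5, which unloads PCNA, at 0.13 (edgeR adjusted p = 0.0673), and of CDC7, the kinase that fires origins, at 0.11 (edgeR adjusted p = 0.0748). CDC7 read 56.0, 56.3, 53.3 and 55.5 CPM with control siRNA and 60.1, 58.5, 61.2 and 58.6 CPM with A20 siRNA, without overlap. ATAD5 read 60.9, 56.5, 54.0 and 55.1 CPM against 63.4, 62.3, 61.8 and 60.5 CPM, overlapping through control replicate 1. Among 13 E2F and pocket protein genes 11 were above 0, with a median of 0.035. E2F5, at 0.14 (edgeR adjusted p = 0.108), and RBL2, which encodes the pocket protein p130, at 0.11 (edgeR adjusted p = 0.116), did not overlap between groups. E2F1 was at 0.043 (edgeR adjusted p = 0.532). Of the 66 genes, 3 had groups without overlap and a higher level with A20 siRNA, CDC7, E2F5 and RBL2 (4.55%, background 3.71%). The reverse held in 1, RNASEH2A, at -0.091 (edgeR adjusted p = 0.165), which is 1.52%, beside a background of 3.9%. Among 10 other genes of nucleotide synthesis 8 were below 0, with a median of -0.029 and none called. Medians were -0.0011 in 15 S-phase kinases and checkpoint genes, 0.015 in 20 other replisome and licensing genes and 0.016 in 8 genes of chromatin assembly and maintenance methylation.

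Mitotic genes, which peak later in the cycle, had a median of 0.011 over 24 genes, of which 0 were called, where 1.25% of all tested genes were. At an unadjusted p under 0.05 there were 3 lower and 4 higher, which is 12.5% and 16.7%, beside the 7.37% and 8.81% of all tested genes. MAD2L1, a spindle checkpoint protein, read 167, 178, 179 and 169 CPM with control siRNA and 164, 158, 164 and 157 CPM with A20 siRNA, without overlap. It was just over the threshold at -0.11 (edgeR adjusted p = 0.0508). MAD2L1 was the 1 mitotic gene lower without overlap (4.17%, background 3.9%), and 3 were higher, BUB1B, TTK and FOXM1 (12.5%, background 3.71%). CENPE, a kinetochore motor, was at 0.13 (edgeR adjusted p = 0.0977). Of 7 mismatch repair genes tested, which follow the fork, 0 were called, with a median of -0.0092. At an unadjusted p under 0.05 there were 0 lower and 1 higher, which is 14.3%, beside 7.37% and 8.81% of all tested genes. The latter was MLH3 at 0.13 (edgeR adjusted p = 0.266), and PMS2 was next at -0.094 (edgeR adjusted p = 0.491).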

How the data were processed

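The authors trimmed reads with Trimmomatic, mapped them with STAR to GRCh38.p7 and deposited raw counts of uniquely mapped reads per gene. The GENCODE release and strand setting are not given in the sources used here. From these counts, edgeR 4.0.16 in R 4.3.3 was run on all 8 samples (TMM, filterByExpr with a minimum count of 10, quasi-likelihood test, Benjamini-Hochberg threshold 0.05). SEs came from the log2 fold change and F. Symbols, coordinates and lengths came from GENCODE 44, which matched 56948 of 57992 genes. On simulated counts for A20 siRNA against control siRNA (13285 genes), 54.4% of genes changed by 0.2 log2 units were recovered, 82.5% at 0.5 and 100% at 1, and 9.47% of calls were unchanged genes. Members, lists and tests were chosen with earlier results of these data known. Values per sample are given for the 12 members of smallest p and the member of highest level per kilobase in each role; in other lists the 2 of smallest p are named. GMNN, TIMELESS and E2F1 were added after their values were seen. Alternatives were RLE scaling, other filters, DESeq2 1.42.0, limma-voom (limma 3.58.1), the replicate number as a block, length and GC corrections (loess, span 0.5) and samples left out. One item of the compared lists is not reported here.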

Additional observations from a re-analysis of the deposited data

Results flagged for a closer look

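In 6 of the 86 groups examined, each 4 samples of 1 gene under 1 siRNA, 1 sample stood apart from the other 3 by Dixon's criterion at 95%, where chance alone gives about 4.3. MCM2 was at 243 CPM in control replicate 1 and at 251 to 252 CPM in the other controls. GINS2 was at 77.9 CPM in control replicate 2, beside 73.9 to 74.1 CPM in the others. TYMS was at 113 CPM in the same sample, beside 108 CPM. With A20 siRNA, GINS1 was at 135 CPM in replicate 2, beside 131 CPM, and CCNE1 at 58.0 CPM in that replicate, beside 54.9 to 55.3 CPM. POLD1 was at 82.8 CPM in A20 replicate 3, beside 84.4 to 84.6 CPM.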

How the results depend on the processing

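The 12 members named by p kept the sign of their log2 fold change under every alternative run. TNFAIP3 ran from -0.72 to -0.71, and from -0.77 to -0.67 with 1 sample left out. DESeq2 gave TNFAIP3 no adjusted p, and these ranges for TNFAIP3 leave DESeq2 out. The median over the members went from 0.0007 to 0.0078 and, with 1 sample left out, from -0.0040 to 0.010. Members called higher numbered 1, POLE, with no low-count filter (0.11, adjusted p = 0.00765), with the replicate number as a block (0.11, adjusted p = 0.0119), with that block and the length correction (0.092, adjusted p = 0.0342) or the length and GC correction (0.094, adjusted p = 0.0283), and without control replicate 1 and A20 replicate 2 (0.16, adjusted p = 0.00361). With 1 sample left out the members called were 0 to 1 higher and 0 to 2 lower, the 1 and 2 without control replicate 1. Of the other S-phase genes called higher there was 1 with no filter and 1 with the block, both ATAD5, 2 with the block and either correction, CDC7 and ATAD5, 3 without both samples, CDC7, MCM8 and ATAD5, with 1 lower, ASF1B, and 0 to 5 with 1 sample left out. Over all genes 167 were called, but 624 with no filter, 474 with the block, 452 and 438 with the block and the corrections, 1097 without both samples, and from 12 to 997 with 1 sample left out. The cause of these changes was not tested. Same-numbered samples deviated together by a correlation of 0.0838, 0.0336, 0.0354 and -0.00982, so the numbers were not taken to pair the samples, and among the members and the other S-phase genes the block changed the calls of POLE and ATAD5 and, with either correction, that of CDC7, and no other. The lowest count of any member in any sample was 385, in RPA3.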
